A study of Mus musculus with 15 samples.

Results

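The genes of presynaptic vesicle release were followed here in mouse cerebellum, in 3 groups of 5 RNA-seq libraries each. They were chosen by symbol: the numbered synaptotagmins, syntaxins, VAMPs, complexins, SV2 proteins, synapsins, RIMs, UNC13 proteins, RAB3 proteins and syntaxin-binding proteins, with Snap25, Bsn, Pclo and Syp. Such a symbol was found for 70 of 24420 genes. The 66 with a mean of at least 0.5 CPM over the 15 libraries are described (CPM, counts of a gene per mega count of the library). Syt8, Cplx4, Stx19 and Stx11 were left out at means of 0.03, 0.08, 0.14 and 0.18 CPM, and the lowest members kept were Syt15 at 0.96 and Cplx3 at 1.54 CPM. All 66 members passed the filter on low counts that decided which of the table's genes were tested.

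The WT group is wild type FVB/nJ mice of 9 weeks. The 82Q group is FVB/nJ mice of the same age that carry Atxn1[82Q], an Atxn1 allele with an expanded glutamine repeat, the kind of expansion that causes spinocerebellar ataxia type 1. The 82Q_M120A group carries Atxn1[82Q] together with CalphaLoxM120A, an altered allele of the catalytic subunit of protein kinase A (PKA), which Prkaca encodes; these mice were 8 weeks old and of a mixed background (Mix:c57Bl/6J:FVB/nJ). Strain and age therefore differ together with the kinase allele, and no group carries that allele alone, so these cannot be told apart in either comparison that uses 82Q_M120A. The series text calls the Atxn1[82Q] mice a knockin, and no source used here gives the promoter that drives the allele or any Cre line. Tissue was whole cerebellum, although the study is about Purkinje cells, and the labels do not say that replicates are separate animals, so p-values measure only the spread between these libraries.

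Transmitter release depends on a SNARE complex, in which the vesicle protein synaptobrevin (VAMP) pairs with syntaxin and SNAP-25 at the presynaptic membrane. UNC13 and RIM proteins prepare vesicles for fusion at the active zone, complexin holds the complex ready, and synaptotagmins sense calcium. RAB3 proteins, synapsins, synaptophysin and SV2 proteins ride on the vesicle. PKA is known to phosphorylate several of these proteins, among them RIM1, synapsin I, SNAP-25 and synaptotagmin 12. In the cerebellum the granule cells, by far the most numerous neurons, form the parallel fibre synapses, the molecular layer interneurons and Purkinje cells form inhibitory ones, and Purkinje cells are the site of early change in spinocerebellar ataxia type 1.

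Library totals ran from 38.3 mega counts in WT-5 to 99.4 in 82Q_M120A-1, and the libraries are named by group and by column order. The marker lists used here and below were chosen with earlier results of these data known. All 12 Purkinje cell marker genes fell in 82Q and in 82Q_M120A against WT. Their summed level ran from 11171 to 12810 CPM in WT, 4186 to 5149 CPM in 82Q and 4181 to 5579 CPM in 82Q_M120A. All 8 microglia markers rose in 82Q against WT, and of 10 granule cell markers 5 rose and 1, Etv1, fell in 82Q_M120A against WT. Of 8 oligodendrocyte markers 6 rose and none fell in 82Q against WT, all 8 rose in 82Q_M120A against WT, and 4 rose and none fell in 82Q_M120A against 82Q; their summed level ran from 4939.6 to 5970.2 CPM in WT, 6086 to 7360.3 CPM in 82Q and 6848 to 7485 CPM in 82Q_M120A. The 6 choroid plexus genes, Ttr among them, summed to 20.3 to 86.4 CPM in WT-4, 82Q-1, 82Q-4 and 82Q_M120A-2 to 82Q_M120A-5 and to 302 to 2784 CPM in the other 8 libraries, so 1 WT, 2 82Q and 4 82Q_M120A libraries were low. The mean log2 CPM of these genes served as a covariate in an alternative added after seeing the data. In whole tissue, fewer cells of a type and less RNA per cell cannot be told apart. Prkaca itself, counted over its whole gene, was at 168 ± 3.60 CPM in WT, 164 ± 5.76 CPM in 82Q and 145 ± 5.54 CPM in 82Q_M120A (adjusted p = 5.09e-05 against WT). Atxn1 did not pass the test in 82Q against WT (adjusted p = 0.308), and gene totals do not resolve either altered allele.

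In 82Q against WT, 4 of the 66 release genes rose and 10 fell, 21.2% of them, where 18.7% of all genes tested were called. A call is an adjusted p under 0.05 in edgeR's quasi-likelihood test of all 15 libraries, two-sided, with Benjamini-Hochberg adjustment over the 16808 genes tested. The share called higher among all genes was 8.63% and the share called lower 10.1%. The median log2 fold change was -0.03 over the release genes and 0.01 over all genes tested. The genes that fell were Syt6, Rab3d, Syt7, Unc13c, Sv2c, Rims4, Syt2, Vamp1, Snap25 and Syt9, and those that rose were Stxbp6, Syn3, Stxbp3 and Syt11. Of the 14, only Syt6 and Rab3d moved by more than 0.5 on the log2 scale. The groups did not overlap in 5 members that were higher and 10 that were lower in 82Q. Of all genes tested, 16.6% had groups without overlap, 6.81% higher and 9.79% lower. With library size as the only scaling, 10 release genes were called higher and 7 lower. That scaling moved the median log2 fold change of all genes from 0.01 to 0.06. No share of all genes called is given for it.

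In 82Q_M120A against WT, 13 release genes rose and 18 fell, 47.0% of the 66, where 36.4% of all genes tested were called, 18.6% of them higher and 17.8% lower. With library size as the only scaling, 20 rose and 13 fell, and no share of all genes called is given for that scaling. Of the release genes 7 were higher and 10 lower with no overlap between the groups, where 25.3% of all genes tested had none (12.4% higher, 12.9% lower). Their median log2 fold change was -0.01, beside 0.01 over all genes. In both comparisons with WT all 12 Purkinje cell markers fell, and in 82Q_M120A 6 of 8 microglia markers rose and 1 fell and all 8 oligodendrocyte markers rose, and the part of these cell types in the release genes' values was not tested. In 82Q_M120A against 82Q, 9 release genes rose and 6 fell, 22.7% of them, where 18.9% of all genes were called (10.3% higher, 8.63% lower). In that comparison 6 members were higher and 3 lower without overlap, beside 12.1% of all genes tested (6.63% higher, 5.5% lower). The members' median log2 fold change was -0.02, beside -0.0027 over all genes. Of the granule cell markers 4 of 10 and of the oligodendrocyte markers 4 of 8 rose in that comparison, with none lower in either list, and their part was not tested. These comparisons share libraries, the WT libraries in one pair and the 82Q_M120A or 82Q libraries in the others, so the values of each are given side by side below and not compared by overlap. The plot of all members by family shows the 3 comparisons together.

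**Figure D1:**
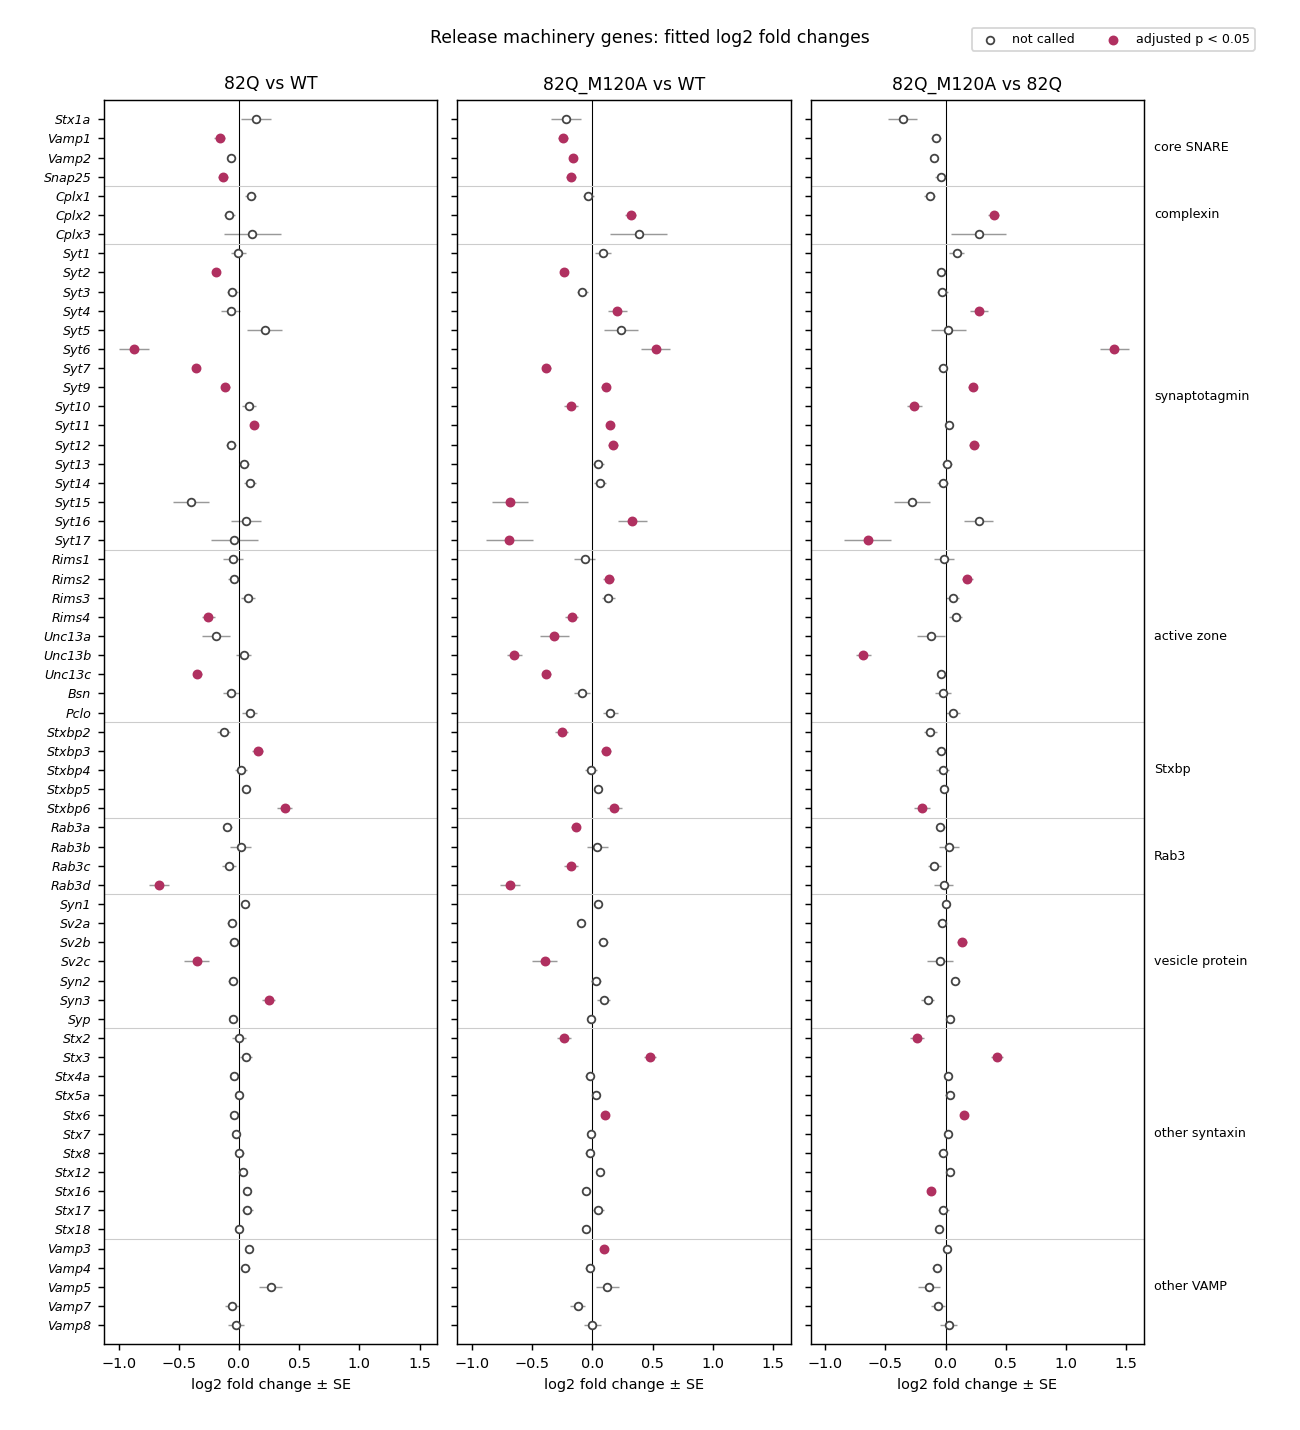
Fitted log2 fold change ± SE (x axis) of 64 release genes (y axis, grouped by family) in 3 comparisons of 5 libraries a group; filled points passed an adjusted p of 0.05 and open points did not. Most points lie within 0.5 of 0, and Syt6 lies at -0.87, 0.53 and 1.40.

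Of the 5 core SNARE genes, Snap25 and Vamp1 fell in 82Q, and these and Vamp2 fell in 82Q_M120A against WT, all by less than 0.25 on the log2 scale. Of all genes tested, 10.1% were called lower in 82Q and 17.8% in 82Q_M120A against WT. The plot of general release genes relative to the WT mean shows Snap25 and Vamp2 beside other general genes. Per kilobase of exon (the union of GENCODE M21 exons), Snap25 was the most abundant release gene in WT (Vamp7 has no length in that annotation) at 439.8 CPM per kb. Cplx1 stood at 320.2, Rab3a at 197 and Vamp2 at 181 CPM per kb. Snap25 stood at 2976, 2884, 2903, 3204 and 2967 CPM in the WT libraries. In 82Q Snap25 was at 2833, 2544, 2873, 2740.3 and 2624 CPM, and in 82Q_M120A at 2581, 2838, 2523, 2581 and 2706 CPM. All 5 WT libraries lay above all 5 of both other groups, with WT-4 the highest. Snap25 (chr2:136713453-136782428, plus strand; GENCODE M21 gene coordinates, mm10, here and below), the membrane-bound partner of syntaxin, fell in 82Q (against WT: log2 fold change -0.13 ± 0.04 SE, adjusted p = 0.0384) and in 82Q_M120A (log2 fold change -0.17 ± 0.04 SE, adjusted p = 0.00413). The 82Q call was lost without WT-1, WT-4, WT-5, 82Q-2, 82Q-4 or 82Q-5, and with library size as the only scaling or no filter on low counts (adjusted p = 0.0561 to 0.14).

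Vamp2 stood at 692, 662, 696, 712 and 693 CPM in the WT libraries. In 82Q Vamp2 was at 652, 653, 689, 659 and 640.3 CPM, and in 82Q_M120A at 616, 647, 610.1, 594 and 618 CPM. Vamp2, the main synaptic vesicle SNARE of the forebrain, was lower in 82Q_M120A than in every WT library (log2 fold change -0.16 ± 0.03 SE, adjusted p = 0.00102), while its 82Q libraries overlapped WT (log2 fold change -0.07 ± 0.03 SE, adjusted p = 0.176). In 82Q_M120A against 82Q it missed the threshold (adjusted p = 0.0595) and passed without 82Q_M120A-2, and with library size as the only scaling, a filter at a mean of 1 CPM, the choroid plexus covariate, limma-voom or DESeq2 (adjusted p = 0.00874 to 0.042). Vamp1 stood at 349, 358, 349, 365 and 376 CPM in the WT libraries. In 82Q Vamp1 was at 346, 317, 306, 312 and 326 CPM, and in 82Q_M120A at 289.7, 327, 308, 284 and 311 CPM. Vamp1, the paralog abundant in fast-spiking and brainstem neurons, fell in both (log2 fold change -0.16 ± 0.04 SE, adjusted p = 0.0117 in 82Q; log2 fold change -0.24 ± 0.04 SE, adjusted p = 0.000231 in 82Q_M120A), and neither group overlapped WT. With library size as the only scaling, the adjusted p of Vamp1 in 82Q was 0.0557.

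Stx1a stood at 4.1, 4.38, 3.96, 3.55 and 4.68 CPM in the WT libraries. In 82Q Stx1a was at 5.6, 4.37, 4, 4.3 and 4.46 CPM, and in 82Q_M120A at 3.04, 2.93, 4.32, 4.3 and 3.14 CPM. Stx1a, a SNARE of the presynaptic membrane, was scarce in this tissue and its libraries overlapped in all comparisons; against 82Q its 82Q_M120A value just missed the threshold (log2 fold change -0.36 ± 0.12 SE, adjusted p = 0.0511), and it passed without 82Q-3, 82Q_M120A-3 or 82Q_M120A-4, and with RLE factors, limma-voom or DESeq2 (adjusted p = 0.0217 to 0.0492).

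Of the complexins, Cplx2 rose in 82Q_M120A and Cplx1 passed in no comparison. Cplx1 stood at 682, 674, 698, 698 and 752 CPM in the WT libraries. In 82Q Cplx1 was at 769, 762, 716, 747 and 756 CPM, and in 82Q_M120A at 690.2, 738, 725, 625 and 643 CPM. Cplx1 libraries overlapped between groups. With library size as the only scaling, Cplx1 was called higher than WT in 82Q (adjusted p = 0.0283). In 82Q_M120A against 82Q it missed the threshold (adjusted p = 0.0568) and passed without 82Q-3, 82Q_M120A-2 or 82Q_M120A-3, and with a filter at a mean of 1 CPM, limma-voom or DESeq2 (adjusted p = 0.0226 to 0.0489). Cplx2 stood at 890.4, 879, 865, 871 and 916 CPM in the WT libraries. In 82Q Cplx2 was at 763, 868, 848, 893 and 808 CPM, and in 82Q_M120A at 1102, 1185, 1137, 996 and 1089 CPM. Every 82Q_M120A library was above every library of WT and 82Q in Cplx2 (chr13:54371349-54383917, plus strand), which rose by 0.32 against WT (adjusted p = 4.95e-05) and by 0.40 against 82Q (adjusted p = 1.27e-05) on the log2 scale; 82Q itself did not pass against WT (adjusted p = 0.271). Cplx3, a complexin of retinal ribbon synapses, was near the bottom of the range at 1.36 ± 0.314 CPM in WT, 1.47 ± 0.362 CPM in 82Q and 1.78 ± 0.585 CPM in 82Q_M120A and passed in none of the 3 comparisons.

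**Figure D2:**
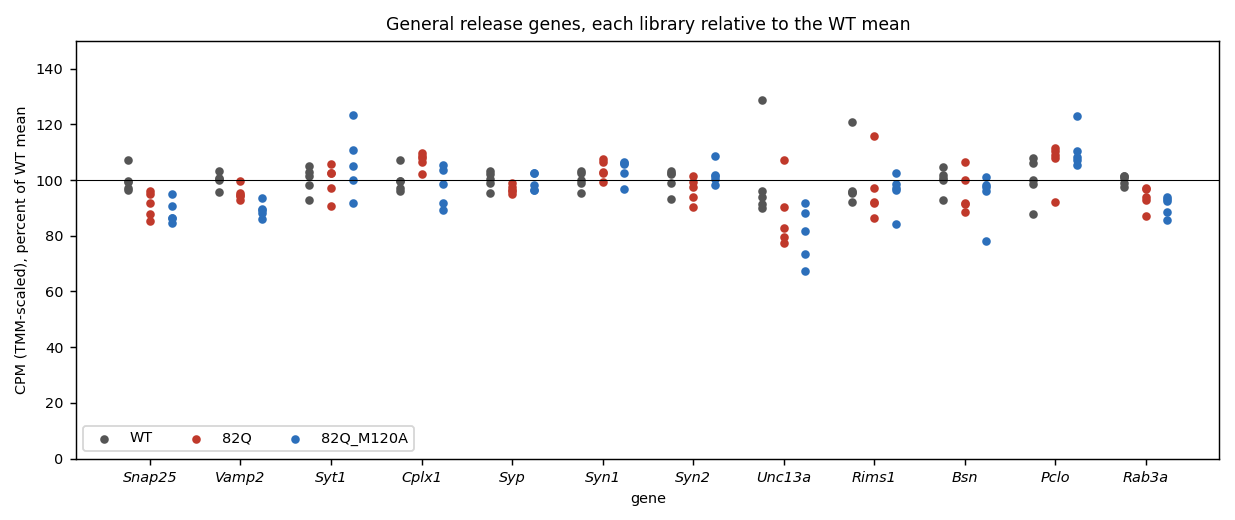
CPM of 12 general release genes in each of the 15 libraries, as percent of the WT mean of that gene (y axis), by gene (x axis) and group (colour). Snap25, Vamp2 and Rab3a lie slightly below 100% in 82Q_M120A. Unc13a lies further below a WT mean that includes a high library, WT-4. Unc13a and Rims1 have single high libraries in WT and 82Q.

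Among the calcium sensors, Syt7 and Syt2 fell in both groups that carry Atxn1[82Q], and Syt1 passed in neither. The plot of genes that differed between 82Q and WT shows the first 2 by library. Syt7 stood at 439.9, 425, 449, 462 and 461 CPM in the WT libraries. In 82Q Syt7 was at 355, 359, 347, 355 and 329 CPM, and in 82Q_M120A at 329, 366, 344, 332 and 344 CPM. Syt7 (chr19:10389090-10453180, plus strand), a high-affinity sensor of facilitation and asynchronous release, was lower in every library of both groups than in any of WT (log2 fold change -0.36 ± 0.04 SE, adjusted p = 1.16e-06 in 82Q; log2 fold change -0.38 ± 0.04 SE, adjusted p = 3.03e-07 in 82Q_M120A). Syt2 stood at 339, 332, 316, 324 and 323 CPM in the WT libraries. In 82Q Syt2 was at 285, 279.9, 288, 292 and 283 CPM, and in 82Q_M120A at 271, 279.7, 282, 272 and 284 CPM. Syt2 (chr1:134646677-134762593, plus strand), the fast calcium sensor of molecular layer interneurons and of brainstem neurons, also had no overlap with WT in either group (log2 fold change -0.19 ± 0.03 SE, adjusted p = 4.51e-05; log2 fold change -0.24 ± 0.03 SE, adjusted p = 2.73e-06). Syt1 stood at 511, 496, 529, 518 and 468 CPM in the WT libraries. In 82Q Syt1 was at 517, 490.5, 518, 534 and 458 CPM, and in 82Q_M120A at 463, 505, 530.3, 559 and 623 CPM. Syt1, the fast sensor of forebrain synapses, overlapped in all groups, with 95% intervals of -0.14 to 0.13 and -0.05 to 0.22 against WT. The calls of Syt7 and Syt2 held in every alternative tried in both comparisons with WT. Of the markers of brainstem and cerebellar nuclei, which also express Syt2, 8 of 11 could be tested (Hoxb5 and Chat, among the others, were at or near 0), 1 rose and none fell in 82Q, 2 rose and 1 fell in 82Q_M120A against WT, and the summed level ran from 364 to 447 CPM in WT, 385 to 467 CPM in 82Q and 369 to 409 CPM in 82Q_M120A. Of the 10 markers of molecular layer interneurons and Golgi cells 2 rose and 1 fell in 82Q and 5 rose and 3 fell in 82Q_M120A against WT, at 771 to 848 CPM summed in WT, 813 to 883 CPM in 82Q and 809.6 to 878 CPM in 82Q_M120A. Cnr1 made up most of the latter sums, at a mean of 554 CPM in WT, 592 CPM in 82Q and 607 CPM in 82Q_M120A. The part of either list in the values of Syt2 was not tested.

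**Figure D3:**
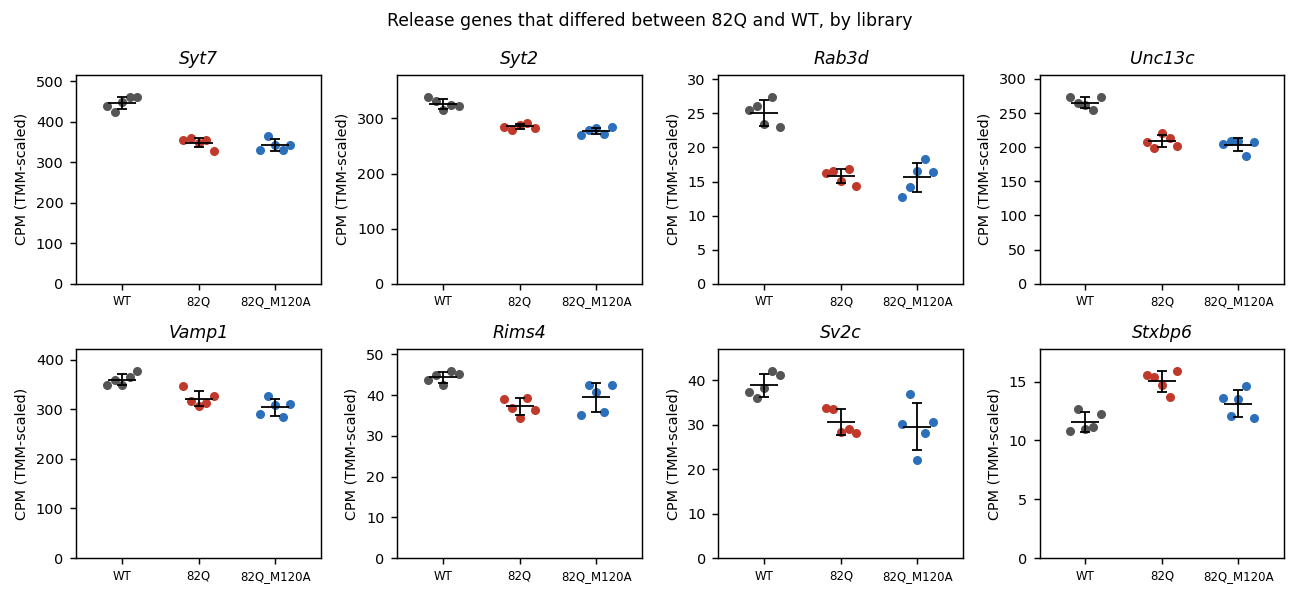
CPM in each library (points; y axes start at 0), with mean and SD (bars), of 8 release genes called in 82Q against WT, by group (x axis). Of these, 7 (Syt7, Syt2, Rab3d, Unc13c, Vamp1, Rims4 and Sv2c) lie lower in 82Q and Stxbp6 lies higher. In most of the genes shown, which are a choice among those called, the 82Q_M120A libraries lie near those of 82Q. Of the called genes not shown, Syt6 and Syt9 were called higher in 82Q_M120A than in 82Q. Syn3, Snap25, Stxbp3 and Syt11, also not shown, were not called in that comparison.

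Syt6 and Syt9 fell in 82Q and rose in 82Q_M120A, and the plot of genes that differed between 82Q_M120A and 82Q shows both. Syt6 stood at 4.56, 5.38, 5.21, 4.14 and 6.44 CPM in the WT libraries. In 82Q Syt6 was at 2.51, 2.72, 3.31, 2.9 and 2.5 CPM, and in 82Q_M120A at 8.54, 6.07, 8.34, 6.79 and 7.11 CPM. Syt6 (chr3:103575231-103645569, plus strand), a synaptotagmin also known from acrosome exocytosis in sperm, was lower in all 82Q libraries than in all WT libraries (log2 fold change -0.87 ± 0.12 SE, adjusted p = 4.39e-05), and higher in all 82Q_M120A libraries than in all 82Q libraries (log2 fold change 1.40 ± 0.12 SE, adjusted p = 2.83e-07). Against WT it was higher in 82Q_M120A (log2 fold change 0.53 ± 0.12 SE, adjusted p = 0.00208), with some overlap between the libraries. Syt6 shares 505 bases of exon with Atg4a-ps on the opposite strand, and no source used here says whether counting used strand. Syt9 stood at 78, 77.3, 78.3, 70.1 and 69.6 CPM in the WT libraries. In 82Q Syt9 was at 66.7, 69.4, 69.7, 71.9 and 67.3 CPM, and in 82Q_M120A at 79.3, 79.6, 79.4, 80.9 and 84.4 CPM. Syt9, a fast sensor of some limbic neurons, was higher in every 82Q_M120A library than in any WT or 82Q library (log2 fold change 0.11 ± 0.04 SE, adjusted p = 0.0255 against WT; log2 fold change 0.23 ± 0.04 SE, adjusted p = 0.000325 against 82Q). Against WT its 82Q value was a weak call (log2 fold change -0.11 ± 0.04 SE, adjusted p = 0.0386) with libraries that overlapped, lost without WT-1, WT-2, WT-3, 82Q-1, 82Q-2, 82Q-3 or 82Q-5, and with library size as the only scaling, no filter on low counts or the choroid plexus covariate (adjusted p = 0.0506 to 0.218), and the 82Q_M120A call against WT was lost without WT-4, WT-5 or 82Q_M120A-5 (adjusted p = 0.078 to 0.0866).

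Syt12 stood at 85.9, 87.5, 84, 80.5 and 81 CPM in the WT libraries. In 82Q Syt12 was at 73.7, 78.3, 80.6, 85.9 and 82.1 CPM, and in 82Q_M120A at 88.4, 93.3, 98.7, 94.4 and 97.1 CPM. Syt12, which does not bind calcium and is phosphorylated by PKA, was highest in 82Q_M120A with no overlap with either other group (log2 fold change 0.17 ± 0.04 SE, adjusted p = 0.00262 against WT; log2 fold change 0.24 ± 0.04 SE, adjusted p = 0.000414 against 82Q), while 82Q overlapped WT (adjusted p = 0.294). Syt10 stood at 11.9, 11.1, 12.6, 11.8 and 11.9 CPM in the WT libraries. In 82Q Syt10 was at 12.4, 11.7, 13, 13 and 12.5 CPM, and in 82Q_M120A at 12.2, 10.2, 9.94, 9.92 and 10.02 CPM. Syt10, known from regulated secretion in the olfactory bulb, was lower in 4 of the 5 82Q_M120A libraries than in all of 82Q, and 82Q_M120A-1 was high (log2 fold change -0.26 ± 0.06 SE, adjusted p = 0.00479 against 82Q). Its call against WT (log2 fold change -0.18 ± 0.06 SE, adjusted p = 0.0256) was lost without WT-3, 82Q_M120A-2, 82Q_M120A-3, 82Q_M120A-4 or 82Q_M120A-5, and with library size as the only scaling or the choroid plexus covariate (adjusted p = 0.051 to 0.132).

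Syt11, which does not bind calcium and is linked to endocytosis, is among the more abundant release genes and rose in both groups without overlap with WT, from 610.3 ± 19.6 CPM in WT to 664 ± 11 CPM in 82Q (log2 fold change 0.12 ± 0.03 SE, adjusted p = 0.0134) and 677 ± 18.8 CPM in 82Q_M120A (log2 fold change 0.15 ± 0.03 SE, adjusted p = 0.0016). Syt4, an activity-regulated member, rose in 82Q_M120A to 297 ± 35.1 CPM from 245 ± 22.6 CPM in 82Q (log2 fold change 0.28 ± 0.08 SE, adjusted p = 0.0213) and 257 ± 15.1 CPM in WT (log2 fold change 0.21 ± 0.08 SE, adjusted p = 0.0472). The first of these calls was lost without 82Q_M120A-4 (adjusted p = 0.0529), and the second without WT-2, WT-3, WT-4, WT-5, 82Q_M120A-1, 82Q_M120A-2, 82Q_M120A-3 or 82Q_M120A-4, and with no filter on low counts, a fit of the 2 groups alone or the choroid plexus covariate (adjusted p = 0.0538 to 0.126). Of the scarce synaptotagmins, Syt17 fell to 3.8 ± 1.3 CPM from 6.15 ± 0.978 in WT (log2 fold change -0.69 ± 0.20 SE, adjusted p = 0.0125) and 5.97 ± 0.493 in 82Q (log2 fold change -0.65 ± 0.20 SE, adjusted p = 0.0307). The Syt17 call against 82Q was lost without 82Q-2, 82Q-3, 82Q-4 or 82Q_M120A-5, and with a fit of the 2 groups alone or the choroid plexus covariate (adjusted p = 0.0531 to 0.0726), and that against WT with the choroid plexus covariate (adjusted p = 0.0961). Syt15 fell to 0.755 ± 0.128 CPM from 1.22 ± 0.234 in WT (log2 fold change -0.68 ± 0.15 SE, adjusted p = 0.00169). Syt16 rose to 2.99 ± 0.413 CPM from 2.38 ± 0.369 in WT (log2 fold change 0.33 ± 0.12 SE, adjusted p = 0.0405), and its call was lost without WT-1, WT-4, WT-5, 82Q_M120A-1, 82Q_M120A-2, 82Q_M120A-3 or 82Q_M120A-4, and with a fit of the 2 groups alone (adjusted p = 0.0502 to 0.113). Syt3, Syt5, Syt13 and Syt14 passed in no comparison. In 82Q_M120A against WT, Syt3 passed without 82Q_M120A-2 (adjusted p = 0.0435).

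**Figure D4:**
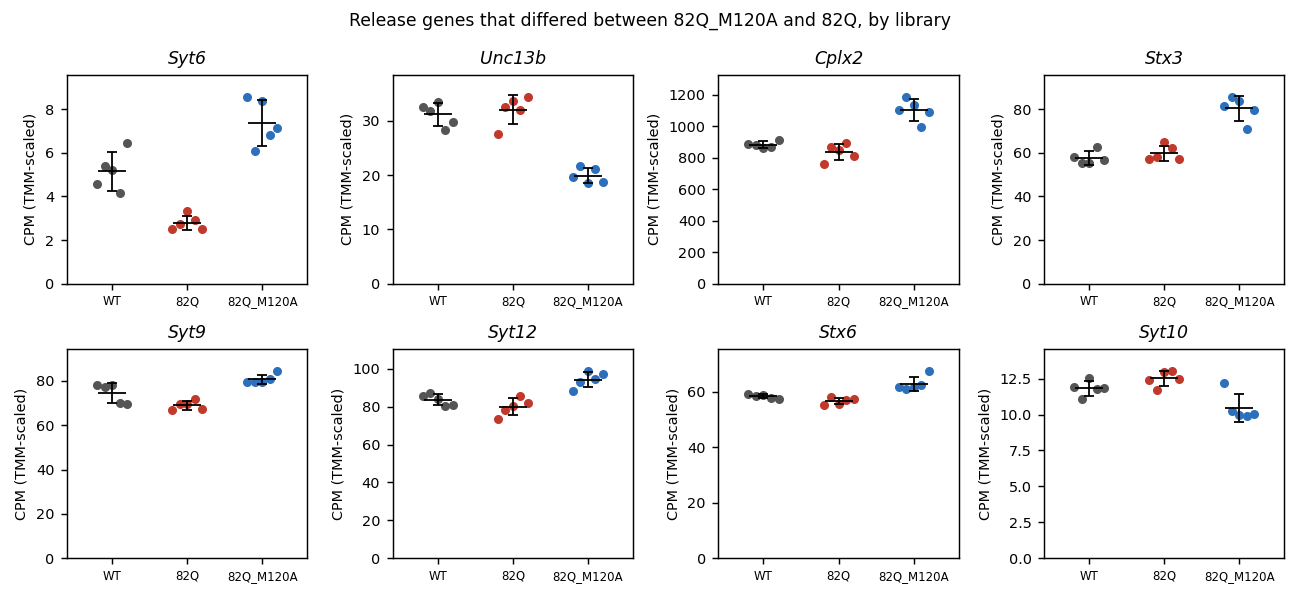
CPM in each library (points; y axes start at 0), with mean and SD (bars), of 8 release genes called in 82Q_M120A against 82Q, by group (x axis). Syt6, Cplx2, Stx3, Syt9, Syt12 and Stx6 lie higher and Unc13b and Syt10 lower in 82Q_M120A than in 82Q.

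The UNC13 proteins prime docked vesicles. Unc13c fell in both groups against WT, and Unc13b fell in 82Q_M120A against both other groups. Unc13c stood at 273, 264, 262, 254 and 274 CPM in the WT libraries. In 82Q Unc13c was at 208, 198, 221, 214 and 202 CPM, and in 82Q_M120A at 204, 209, 209.6, 187 and 208 CPM. Unc13c (chr9:73479422-73968966, minus strand), the paralog enriched in the cerebellum, where it serves parallel fibre synapses, was lower in every library of both groups than in all of WT (log2 fold change -0.35 ± 0.04 SE, adjusted p = 1.31e-06 in 82Q; log2 fold change -0.38 ± 0.04 SE, adjusted p = 2.32e-07 in 82Q_M120A). Unc13b stood at 32.4, 31.9, 33.4, 28.2 and 29.8 CPM in the WT libraries. In 82Q Unc13b was at 27.5, 32.6, 33.7, 32 and 34.3 CPM, and in 82Q_M120A at 19.6, 21.6, 18.6, 21 and 18.8 CPM. In 82Q, Unc13b (Munc13-2; chr4:43058953-43264871, plus strand) overlapped WT (adjusted p = 0.722), whereas all 82Q_M120A libraries lay below all libraries of WT (log2 fold change -0.65 ± 0.06 SE, adjusted p = 2.8e-07) and of 82Q (log2 fold change -0.69 ± 0.06 SE, adjusted p = 5.02e-07). The 82Q_M120A mean of Unc13b was 1.61-fold lower than the 82Q mean.

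Unc13a stood at 301, 296, 317, 424 and 309 CPM in the WT libraries. In 82Q Unc13a was at 353, 255, 262, 273 and 297 CPM, and in 82Q_M120A at 222, 269, 242, 302 and 290.0 CPM. Unc13a (Munc13-1), the isoform that most forebrain synapses depend on, had its highest libraries in WT-4 and 82Q-1. Both are libraries with few choroid plexus transcripts (35.8 and 41.3 summed CPM). The other libraries with few of them, 82Q-4 and 82Q_M120A-2 to 82Q_M120A-5, had Unc13a at 242 to 302 CPM. Unc13a overlapped between libraries of all groups. It passed against WT in 82Q_M120A (log2 fold change -0.31 ± 0.12 SE, adjusted p = 0.049), a call lost without WT-3, WT-4, WT-5, 82Q_M120A-1, 82Q_M120A-2 or 82Q_M120A-3, and with library size as the only scaling, no filter on low counts or a fit of the 2 groups alone (adjusted p = 0.0526 to 0.108). With the choroid plexus covariate, Unc13a passed in 82Q too (adjusted p = 0.035). Unc13a shares 495 bases of exon with Colgalt1 on the opposite strand. Rims1 had the same 2 high libraries. Rims1 stood at 155, 155, 156, 196 and 149 CPM in the WT libraries. In 82Q Rims1 was at 188, 140.0, 149, 158 and 149 CPM, and in 82Q_M120A at 137, 167, 157, 157 and 159.8 CPM. Rims1, the active zone scaffold RIM1, overlapped in every comparison (adjusted p = 0.743 in 82Q and 0.599 in 82Q_M120A against WT) and passed in both with the choroid plexus covariate (adjusted p = 0.0454 and 0.000616, lower than WT); the part of the choroid plexus signal in these values was not tested further.

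Of the other RIM genes, Rims4 fell in both groups against WT and Rims2 rose in 82Q_M120A. Rims4 stood at 43.8, 44.9, 42.4, 45.8 and 45.2 CPM in the WT libraries. In 82Q Rims4 was at 38.9, 36.9, 34.5, 39.3 and 36.4 CPM, and in 82Q_M120A at 35.2, 42.6, 40.8, 35.9 and 42.5 CPM. Rims4, a short RIM protein without the zinc finger, fell in 82Q with no overlap with WT (log2 fold change -0.26 ± 0.05 SE, adjusted p = 0.00259), and in 82Q_M120A with some overlap (log2 fold change -0.17 ± 0.05 SE, adjusted p = 0.019). The latter Rims4 call was lost without 82Q_M120A-1 or 82Q_M120A-4, and with library size as the only scaling (adjusted p = 0.0503 to 0.0692). Rims2, a paralog of Rims1, rose in 82Q_M120A to 218 ± 10.8 CPM against 193 ± 13.2 in 82Q (log2 fold change 0.18 ± 0.05 SE, adjusted p = 0.0109) and 199 ± 9.08 in WT (log2 fold change 0.14 ± 0.05 SE, adjusted p = 0.0266), and the call against WT was lost without WT-3, WT-4, WT-5, 82Q_M120A-2, 82Q_M120A-3 or 82Q_M120A-5, and with the choroid plexus covariate (adjusted p = 0.0503 to 0.153). Rims3 passed in no comparison. In 82Q_M120A against WT it would have passed without WT-2 or 82Q_M120A-1, and with library size as the only scaling (adjusted p = 0.0167 to 0.0421). Of the active zone scaffolds, neither Bassoon nor Piccolo passed. Bsn stood at 502, 511, 505, 525 and 467 CPM in the WT libraries. In 82Q Bsn was at 459, 459.6, 444, 534 and 503 CPM, and in 82Q_M120A at 391.7, 483, 493, 489 and 508 CPM. Its 82Q_M120A-1 library was the lowest of 15. Pclo stood at 415, 408, 439.5, 447 and 364 CPM in the WT libraries. In 82Q Pclo was at 452, 382, 458, 463 and 448 CPM, and in 82Q_M120A at 437, 445, 449, 509.9 and 457 CPM. Their libraries overlapped in every comparison, and the 95% interval of the log2 fold change in 82Q against WT was -0.20 to 0.07 for Bsn and -0.04 to 0.22 for Pclo. In 82Q_M120A against WT the interval was -0.22 to 0.05 for Bsn and 0.02 to 0.28 for Pclo. There Pclo missed the threshold (adjusted p = 0.0682). It passed without WT-4 and with library size as the only scaling (adjusted p = 0.0143 to 0.0462).

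The promoters of 51 of the members are in the RefSeq table of the GRCm38.p6 build, in 65 windows of 250 bases before to 50 after a start. They were searched on both strands for TGAATGAA and TGAATGGA, 2 octamers to which Capicua, a partner of ATXN1, is known to bind. They were also searched for TGACGTCA, the cyclic AMP response element, which is bound by CREB, a target of PKA. Of all 32851 windows 1.3%, 1.21% and 1.79% held them. Bsn had TGAATGAA, Unc13c had TGAATGGA, and Stxbp3 and Syn1 had TGACGTCA; no other member's window held one. The 230 bases that end 20 before the start are shown for the 2 genes with one of these Capicua octamers. They are also shown for Rab3d and Syt2, chosen among members that fell in 82Q with neither of the 2 octamers searched. Capitals mark the octamer as it reads on the gene's strand, which is the reverse complement of the letters searched.
Unc13c, chr9:73969058-73969287, minus strand: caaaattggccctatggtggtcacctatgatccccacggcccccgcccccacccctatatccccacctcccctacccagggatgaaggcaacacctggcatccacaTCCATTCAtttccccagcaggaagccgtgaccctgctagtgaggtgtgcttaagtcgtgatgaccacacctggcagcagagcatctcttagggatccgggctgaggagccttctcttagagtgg
Bsn, chr9:108190404-108190633, minus strand: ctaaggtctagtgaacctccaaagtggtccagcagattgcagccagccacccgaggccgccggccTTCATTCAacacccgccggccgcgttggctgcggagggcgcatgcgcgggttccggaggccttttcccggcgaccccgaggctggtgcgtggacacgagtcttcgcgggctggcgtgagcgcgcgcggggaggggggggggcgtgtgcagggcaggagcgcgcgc
Rab3d, chr9:21918204-21918433, minus strand: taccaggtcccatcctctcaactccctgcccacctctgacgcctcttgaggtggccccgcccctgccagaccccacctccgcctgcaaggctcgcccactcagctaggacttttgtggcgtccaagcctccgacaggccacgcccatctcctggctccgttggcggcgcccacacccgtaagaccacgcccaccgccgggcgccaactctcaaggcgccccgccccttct
Syt2, chr1:134646362-134646591, plus strand: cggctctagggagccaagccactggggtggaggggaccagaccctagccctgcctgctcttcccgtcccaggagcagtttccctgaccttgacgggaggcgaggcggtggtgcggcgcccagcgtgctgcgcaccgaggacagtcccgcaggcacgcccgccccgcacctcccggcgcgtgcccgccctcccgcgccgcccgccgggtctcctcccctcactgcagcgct
A match is a description of the letters, not a site. Unc13c, with its octamer, fell in 82Q, and Bsn, with one, did not pass. Rab3d and Syt2, which fell, held neither of the 2 octamers searched in these windows. A part of Capicua in these values was not tested.

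Of the RAB3 proteins, the small GTPases that dock vesicles, 1 of 4 fell in 82Q and 3 of 4 in 82Q_M120A against WT, where 10.1% and 17.8% of all genes tested were called lower. Rab3d stood at 25.5, 26, 23.4, 27.4 and 23 CPM in the WT libraries. In 82Q Rab3d was at 16.2, 16.6, 15.1, 16.8 and 14.3 CPM, and in 82Q_M120A at 12.8, 14.2, 16.6, 18.3 and 16.3 CPM. Rab3d (chr9:21907491-21918192, minus strand), known mainly from exocrine secretion, was lower in every library of both groups than in all of WT (log2 fold change -0.67 ± 0.08 SE, adjusted p = 1.05e-05 in 82Q; log2 fold change -0.68 ± 0.08 SE, adjusted p = 4.3e-06 in 82Q_M120A). Rab3a stood at 427, 433, 440.1, 444 and 443 CPM in the WT libraries. In 82Q Rab3a was at 425, 411, 382, 423 and 406 CPM, and in 82Q_M120A at 388, 411, 408, 375 and 405 CPM. Rab3a, the main neuronal paralog, was below all WT libraries in both groups without passing in 82Q (log2 fold change -0.10 ± 0.04 SE, adjusted p = 0.0787; 0.0252 with DESeq2 and 0.0426 with the choroid plexus covariate), and passed in 82Q_M120A (log2 fold change -0.14 ± 0.04 SE, adjusted p = 0.0063); with library size as the only scaling the latter was 0.0505. Its exons share 29 bases with Mpv17l2, which lies on the opposite strand and fell in both groups. Rab3c fell from 336 ± 19.8 CPM in WT to 297 ± 25.6 CPM in 82Q_M120A (log2 fold change -0.18 ± 0.06 SE, adjusted p = 0.0211). This Rab3c call was lost without 82Q_M120A-3, and with library size as the only scaling (adjusted p = 0.0608 to 0.0725). Rab3b passed in no comparison. Unc13a, Rab3a and Stxbp2 lie on mouse chromosome 8, as Prkaca does, at 12.3, 13.2 and 80.3 megabases from it. All 3 were called lower in 82Q_M120A than in WT, where 17.8% of all genes tested were called lower. The Unc13a call was lost in several alternatives, as given above, and linkage to the kinase allele was not tested.

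Of the 7 synapsin, SV2 and synaptophysin genes, Syn3 rose and Sv2c fell in 82Q against WT, and the other 5 passed in neither comparison with WT. Of all genes tested, 18.7% were called in 82Q and 36.4% in 82Q_M120A against WT. Syp stood at 882, 851, 914, 896 and 922 CPM in the WT libraries. In 82Q Syp was at 860.3, 882, 872, 858 and 848 CPM, and in 82Q_M120A at 859.8, 917, 877, 859.6 and 916 CPM. Syp (synaptophysin) overlapped in all groups and passed in none of the comparisons. Syn1 stood at 213, 215, 220.3, 222 and 205 CPM in the WT libraries. In 82Q Syn1 was at 231, 220.1, 213, 229 and 221 CPM, and in 82Q_M120A at 208, 221, 228, 227 and 229 CPM. Syn1 (synapsin I, a PKA substrate) overlapped in all groups and passed in none either. With library size as the only scaling it was called higher than WT in 82Q (adjusted p = 0.0215) and in 82Q_M120A (adjusted p = 0.0154). Syn2 stood at 333, 320.4, 335, 302 and 331 CPM in the WT libraries. In 82Q Syn2 was at 304, 322, 316, 329 and 293 CPM, and in 82Q_M120A at 319, 331, 353, 325 and 328 CPM. Syn2 (synapsin II), too, overlapped and did not pass. Syn3 stood at 45.6, 48.6, 49.6, 46.8 and 46.9 CPM in the WT libraries. In 82Q Syn3 was at 58.3, 55.9, 54.6, 58.3 and 54.5 CPM, and in 82Q_M120A at 47.7, 45.5, 58, 53.4 and 49 CPM. Syn3, the least abundant synapsin, was above WT in all 82Q libraries (log2 fold change 0.25 ± 0.05 SE, adjusted p = 0.00275), while 82Q_M120A overlapped both (log2 fold change 0.09 ± 0.05 SE, adjusted p = 0.171 against WT). Against 82Q it missed the threshold (log2 fold change -0.15 ± 0.05 SE, adjusted p = 0.0525) and passed without 82Q_M120A-3 or 82Q_M120A-4, and with RLE factors, the choroid plexus covariate, limma-voom or DESeq2 (adjusted p = 0.00363 to 0.0494). Syn3 shares 1733 bases of exon with Timp3 on the opposite strand, and Timp3 rose in 82Q as well (log2 fold change 0.27, adjusted p = 0.0368). Reads of the pair cannot be told apart without strand, and their part in the Syn3 value was not tested.

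Of the SV2 proteins, Sv2c, the least abundant, fell in both groups: from 36 to 42.1 CPM in WT to 28.1 to 33.8 CPM in 82Q and 22.1 to 37 CPM in 82Q_M120A (log2 fold change -0.35 ± 0.10 SE, adjusted p = 0.0286; log2 fold change -0.40 ± 0.10 SE, adjusted p = 0.0075). The WT and 82Q libraries did not overlap, and the 82Q call was lost without WT-4, WT-5, 82Q-3, 82Q-4 or 82Q-5 (adjusted p = 0.062 to 0.069). Sv2b rose in 82Q_M120A against 82Q (log2 fold change 0.13 ± 0.04 SE, adjusted p = 0.0335), a call lost without 82Q-1, 82Q-5, 82Q_M120A-1, 82Q_M120A-3 or 82Q_M120A-5, and with no filter on low counts, a fit of the 2 groups alone or the choroid plexus covariate (adjusted p = 0.0508 to 0.0964). Not called in 82Q_M120A against WT, Sv2b passed there without 82Q_M120A-2, and with library size as the only scaling (adjusted p = 0.0137 to 0.0468). Sv2a, the most abundant SV2, passed in no comparison (log2 fold change -0.09 ± 0.04 SE, adjusted p = 0.0537 in 82Q_M120A against WT). In that comparison Sv2a would have been called without WT-1 or 82Q_M120A-5, and with RLE factors, the choroid plexus covariate, limma-voom or DESeq2 (adjusted p = 0.0146 to 0.0476).

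Of the syntaxin-binding proteins, Stxbp6 and Stxbp3 rose in 82Q. Stxbp6 stood at 10.8, 12.7, 10.9, 11.2 and 12.3 CPM in the WT libraries. In 82Q Stxbp6 was at 15.5, 15.4, 14.7, 13.7 and 15.9 CPM, and in 82Q_M120A at 13.6, 12, 13.5, 14.6 and 11.9 CPM. Stxbp6 (amisyn), a SNARE inhibitor that competes for syntaxin, was above all WT libraries in every 82Q library (log2 fold change 0.38 ± 0.06 SE, adjusted p = 0.000377); in 82Q_M120A it lay between the 2 and overlapped both. Its rise against WT there (log2 fold change 0.18 ± 0.07 SE, adjusted p = 0.0348) was lost without WT-1, WT-3, WT-4, 82Q_M120A-1, 82Q_M120A-3 or 82Q_M120A-4, and with a fit of the 2 groups alone (adjusted p = 0.0548 to 0.0995), and its fall against 82Q (log2 fold change -0.19 ± 0.06 SE, adjusted p = 0.043) without 82Q-1, 82Q-2, 82Q-3, 82Q-5, 82Q_M120A-2, 82Q_M120A-3 or 82Q_M120A-5, and with library size as the only scaling, a fit of the 2 groups alone or the choroid plexus covariate (adjusted p = 0.0515 to 0.103). Stxbp3 (Munc18-3), which serves regulated exocytosis outside neurons, rose in 82Q without overlap (log2 fold change 0.16 ± 0.04 SE, adjusted p = 0.0169) and in 82Q_M120A (log2 fold change 0.11 ± 0.04 SE, adjusted p = 0.0481). Its 82Q call was lost without WT-4 (adjusted p = 0.0531), and its 82Q_M120A call without WT-1, WT-3, WT-4, WT-5, 82Q_M120A-1, 82Q_M120A-2, 82Q_M120A-3 or 82Q_M120A-5, and with RLE factors, no filter on low counts or a fit of the 2 groups alone (adjusted p = 0.0569 to 0.166). Stxbp2 (Munc18-2) fell in 82Q_M120A from 51.5 ± 3.22 to 43.2 ± 3.55 CPM (log2 fold change -0.25 ± 0.06 SE, adjusted p = 0.00182), with no overlap with WT. Stxbp4 and Stxbp5 (tomosyn) passed in no comparison. With library size as the only scaling, Stxbp5 was called higher than WT in 82Q (adjusted p = 0.00606) and in 82Q_M120A (adjusted p = 0.0101).

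The 11 syntaxins outside the core SNARE genes and the 5 VAMPs beyond Vamp1 and Vamp2 are known mostly from other steps of membrane traffic. None of the 16 was called in 82Q against WT, where 18.7% of all genes tested were called. The Vamp3 libraries of 82Q did not overlap WT (adjusted p = 0.0748). With library size as the only scaling, Stx16, Vamp3 and Vamp5 passed in that comparison (adjusted p = 0.00718 to 0.0266). In 82Q_M120A the largest change against WT among the 16 was Stx3. Stx3 stood at 57.9, 55.5, 55.3, 62.9 and 56.5 CPM in the WT libraries. In 82Q Stx3 was at 57.1, 57.9, 64.8, 62.1 and 57.3 CPM, and in 82Q_M120A at 81.6, 85.5, 83.8, 71.1 and 79.7 CPM. Stx3 (chr19:11775118-11819403, minus strand), which acts in ribbon synapses and in dendritic exocytosis, was above every WT and 82Q library in all 82Q_M120A libraries (log2 fold change 0.48 ± 0.05 SE, adjusted p = 8.29e-07 against WT; log2 fold change 0.42 ± 0.05 SE, adjusted p = 1.13e-05 against 82Q), while 82Q overlapped WT (adjusted p = 0.508). Stx6 stood at 59.1, 58.4, 58.9, 57.7 and 57.5 CPM in the WT libraries. In 82Q Stx6 was at 55.4, 58.1, 55.5, 56.8 and 57.5 CPM, and in 82Q_M120A at 61.6, 61.2, 61.7, 62.3 and 67.4 CPM. Stx6, of the trans-Golgi network, moved the same way by less (log2 fold change 0.11 ± 0.03 SE, adjusted p = 0.00825 against WT; log2 fold change 0.15 ± 0.03 SE, adjusted p = 0.00161 against 82Q). Stx2 fell from 19.3 ± 0.516 CPM in WT and 19.3 ± 0.879 CPM in 82Q to 16.4 ± 1.63 CPM (log2 fold change -0.24 ± 0.06 SE, adjusted p = 0.00325; log2 fold change -0.24 ± 0.06 SE, adjusted p = 0.00649), with libraries that overlapped in both. Stx16, also of the trans-Golgi network, fell against 82Q (log2 fold change -0.12 ± 0.03 SE, adjusted p = 0.0113) without overlap. Vamp3 (cellubrevin) rose slightly against WT (log2 fold change 0.09 ± 0.03 SE, adjusted p = 0.022), a call lost without WT-3, 82Q_M120A-1 or 82Q_M120A-4 (adjusted p = 0.053 to 0.0687). Stx4a, Stx5a, Stx7, Stx8, Stx12, Stx17 and Stx18, and Vamp4, Vamp5, Vamp7 and Vamp8, passed in no comparison. In 82Q_M120A against WT, Stx12 passed with library size as the only scaling (adjusted p = 0.00939) and Vamp7 without 82Q_M120A-1 (adjusted p = 0.0415). Stx18 shares 574 bases of exon with Nsg1 on the opposite strand; Nsg1 fell in both groups (log2 fold change -0.88 in 82Q), but Stx18 did not pass (adjusted p = 0.977).

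Of 56 other genes of the vesicle cycle, all tested, 4 rose and 9 fell in 82Q against WT, 4 rose and 13 fell in 82Q_M120A against WT, and 3 rose and 5 fell in 82Q_M120A against 82Q. These are 23.2%, 30.4% and 14.3% of the 56, where 18.7%, 36.4% and 18.9% of all genes tested were called. Their median log2 fold change was -0.02 in each of the first 2 comparisons. Doc2b, a calcium-binding protein of spontaneous release, changed most in both comparisons with WT: 162 ± 5.99 CPM in WT, 45.8 ± 4.52 CPM in 82Q and 52.1 ± 4.11 CPM in 82Q_M120A (log2 fold change -1.82 ± 0.06 SE, adjusted p = 7.36e-12 in 82Q; log2 fold change -1.64 ± 0.06 SE, adjusted p = 1.25e-11 in 82Q_M120A). Rph3a, the RAB3 effector rabphilin, stood at 531 ± 5.74 CPM in WT, 458 ± 10.7 CPM in 82Q and 440.0 ± 35.1 CPM in 82Q_M120A and fell in both (log2 fold change -0.21 ± 0.04 SE, adjusted p = 0.00215; log2 fold change -0.27 ± 0.04 SE, adjusted p = 0.000126). Slc32a1, the vesicular transporter for GABA and glycine, fell in both (log2 fold change -0.20 ± 0.05 SE, adjusted p = 0.00953; log2 fold change -0.21 ± 0.05 SE, adjusted p = 0.00302). Sypl rose in 82Q (log2 fold change 0.18 ± 0.05 SE, adjusted p = 0.0116). Synpr, a vesicle membrane protein related to synaptophysin, rose in 82Q (log2 fold change 0.23 ± 0.06 SE, adjusted p = 0.0175) and in 82Q_M120A (log2 fold change 0.39 ± 0.06 SE, adjusted p = 0.000166) against WT, and did not pass in 82Q_M120A against 82Q (adjusted p = 0.1). Rimbp2, which links RIM to calcium channels, fell in 82Q_M120A (log2 fold change -0.29 ± 0.05 SE, adjusted p = 0.000396 against WT; log2 fold change -0.34 ± 0.05 SE, adjusted p = 0.000205 against 82Q). Against 82Q, Rab3gap1 fell (log2 fold change -0.10 ± 0.03 SE, adjusted p = 0.0104), Bin1 rose (log2 fold change 0.14 ± 0.03 SE, adjusted p = 0.00681), and Cacna1a, the P/Q-type calcium channel pore, rose (log2 fold change 0.20 ± 0.05 SE, adjusted p = 0.0119). Cacna1a went from 513 ± 18.2 CPM in WT to 458 ± 27.3 in 82Q and 525 ± 37.9 in 82Q_M120A. Against WT it was called lower in 82Q (log2 fold change -0.16 ± 0.05 SE, adjusted p = 0.0344) and did not pass in 82Q_M120A (adjusted p = 0.627).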

How the data were processed

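RNA from mouse cerebellum was sequenced in 15 libraries, 5 for each of 3 groups. The deposited values are counts of reads per gene symbol, in 1 table of 24420 genes. The submitters' processing notes list HISAT2 2.0.1 on build mm10, featureCounts of Subread, and CASAVA 1.8, with DESeq2 1.14.1 under R 3.3.3. No source used here gives the annotation, the strand setting or how multi-mapping reads were counted. Whether reads in bases shared by antisense or overlapping genes were counted for either gene, or left out, is therefore not known here. The same holds for reads that match close paralogs.

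The columns name the group but carry no replicate number, and a library is named by its group and its place among that group's columns. Depth ran from 38.3 to 99.4 mega counts. Counts were fitted with edgeR 4.0.16 (limma 3.58.1, R 4.3.3; TMM factors, filterByExpr, robust glmQLFit and glmQLFTest) over the 15 libraries, with no covariate beside group, which left 12 residual degrees of freedom. Two-sided p-values were adjusted over the 16808 genes tested by Benjamini-Hochberg. The SE is approximate, |log2 fold change| over √F, and intervals are 95%. Printed levels are TMM-scaled CPM, as mean ± SD (n = 5) or by library, and levels per kilobase use GENCODE M21 exons. The fitting script was tested on simulated data.

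The members and gene lists were chosen with earlier results of these data known. Library values are given for 17 general release genes and, per comparison, for the 8 called members with the smallest adjusted p and a mean of at least 1 CPM. Other called members are named with their fold change. Some members are included in the counts but are not reported here. Of the vesicle cycle partners, up to 4 called genes per comparison were chosen, and their values in the other comparisons may stand beside them. Alternatives were RLE factors, library size only, no filter, a mean of at least 1 CPM, only the groups compared, limma-voom, DESeq2 1.42.0, an adjusted p under 0.01, members at a mean of at least 5 CPM, each library left out, and, added after seeing the data, a choroid plexus score as covariate.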

Additional observations from a re-analysis of the deposited data

Results flagged for a closer look

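In 87 sets of 5 libraries (29 release genes in 3 groups), 10 had 1 library far from the other 4 by Dixon's test; chance flags about 1 in 20 such sets. In WT-4, the highest of its group, Unc13a was at 424, Rims1 at 196 and Snap25 at 3204 CPM. In 82Q_M120A-1, Bsn was lowest at 391.7 CPM, while Syt10 was highest at 12.2 CPM. In 82Q_M120A-4, Pclo was highest at 509.9 and Unc13c lowest at 187 CPM. Pclo was lowest in 82Q-2 at 382 CPM, Stx1a highest in 82Q-1 at 5.6 CPM and Stx6 highest in 82Q_M120A-5 at 67.4 CPM. WT-4 holds 3 of the 10, and 82Q_M120A-1 and 82Q_M120A-4 hold 2 each. WT-4 is the 1 WT library with few choroid plexus transcripts and 82Q_M120A-1 the 1 library of its group with many, whereas 82Q_M120A-4 is like most of its group, and the part of this in the values was not tested.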

How the results depend on the processing

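No paired analysis was possible because the columns carry no replicate number. In 82Q against WT, 9 of the 14 calls held in every alternative other than the stricter threshold; in 82Q_M120A, 18 of 31 held against WT and 11 of 15 against 82Q. No called value reversed. Of the genes not called, 10, 12 and 5 passed in some alternative, in the same order. No share of all genes called is given for the alternatives. The counts that follow therefore show only how the members' calls moved, and cannot be set against all genes. An adjusted p under 0.01 left 2 higher and 6 lower in 82Q against WT, 6 higher and 13 lower in 82Q_M120A against WT, and 6 higher and 3 lower in 82Q_M120A against 82Q. Library size as the only scaling gave 10 higher and 7 lower in 82Q against WT and 20 higher and 13 lower in 82Q_M120A against WT; it moved the median of all genes from 0.01 to 0.06 in both. Against 82Q, limma-voom and DESeq2 each gave 10 lower. Leaving out 1 library at a time gave 3 to 5 higher and 7 to 10 lower in 82Q against WT, 8 to 13 higher and 15 to 19 lower in 82Q_M120A against WT, and 8 to 9 higher and 4 to 8 lower in 82Q_M120A against 82Q. The lowest of these, 8 higher against WT, came without WT-3, WT-4, WT-5 or 82Q_M120A-3, and 4 lower against 82Q came without 82Q-2 or 82Q_M120A-5. At 38.3 to 99.4 mega counts, depth limits mainly Syt15, Cplx3, Syt16 and Vamp5, at 0.755 to 2.99 CPM.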

Other observations

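Ratios of paralogs within a library do not depend on the scaling between libraries; the pairs below were chosen after their values were seen, so no test is given. Per kilobase of exon, the ratio of Cplx2 to Cplx1 ran from 0.541 to 0.580 in WT, 0.441 to 0.531 in 82Q and 0.696 to 0.752 in 82Q_M120A, with no overlap between the groups. The ratio of Syt7 to Syt1 was 0.944 to 1.10 in WT, 0.741 to 0.815 in 82Q and 0.615 to 0.809 in 82Q_M120A, so WT stood above both. The ratio of Syt2 to Syt1 was 0.652 to 0.752 in WT, 0.598 to 0.675 in 82Q and 0.497 to 0.638 in 82Q_M120A, where WT and 82Q overlapped. The ratio of Vamp1 to Vamp2 overlapped in all groups, at 0.188 to 0.204 in WT, 0.166 to 0.199 in 82Q and 0.176 to 0.189 in 82Q_M120A. For Unc13b over Unc13a the range was 0.0369 to 0.0597 in WT, 0.0433 to 0.0712 in 82Q and 0.0360 to 0.0490 in 82Q_M120A, and for Unc13c over Unc13a it was 0.860 to 1.30, 0.846 to 1.21 and 0.891 to 1.32. These 2 ratios overlapped in all groups, and Unc13a is the gene with single high libraries in WT and 82Q.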
